A study of Mus musculus with 8 samples.

Results

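Sodium-proton exchangers and their regulators were followed here as 8 genes listed by name: the exchangers Slc9a2, Slc9a5, Slc9a7, Slc9a8 and Slc9a9, the scaffolds Slc9a3r1 and Slc9a3r2, and the cofactor Chp1. All 8 were found, by Ensembl identifier matched to the mouse symbol, among the 39056 genes of the count table, and all 8 passed the filter on low counts that left 14796 genes for testing. The hearts came from male mice 3 months of age, 4 with a deletion of the voltage-gated proton channel HVCN1 (also called Hv1; HVCN1-/-, here HVCN1 null) and 4 wild-type (WT) on a C57BL/6 background. Each heart gave 1 poly-A library, and no treatment was applied beyond the knockout. The labels describe the deletion as a gene knockout without naming a tissue restriction, and the sources used here do not say whether the WT mice were littermates. HVCN1 null hearts are numbered 1 to 4 and WT hearts 5 to 8.

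Sodium-proton exchangers move a proton out of the cytoplasm, or into or out of an organelle, in exchange for sodium or potassium, and are driven by the ion gradients across the membrane. Family members at the cell surface export acid, which in heart muscle ties the control of cytoplasmic pH to sodium entry and so to calcium. Members in the Golgi, the trans-Golgi network and endosomes set the pH inside those compartments, calcineurin B homologous proteins bind the exchangers as obligatory or regulatory cofactors, and PDZ scaffolds anchor exchangers to the actin-linked protein ezrin. HVCN1 is another route by which protons leave cells, and the comparison asks how the transcripts of these genes stood in hearts without it.

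The deleted gene, Hvcn1, was left with 16 counts in the HVCN1 null group, against 318 in the WT group (log2 fold change -4.20, SE 0.38, edgeR quasi-likelihood adjusted p = 3.63e-04), so that each library followed its label. The HVCN1 null libraries held 25851255 to 36396297 counts and the WT libraries 32595114 to 38874640, and no pair of libraries in a group agreed within sampling noise. Cardiomyocyte markers were abundant in every heart, with a summed level of 45634 to 57637 CPM (counts per 1000000 of the scaled library) in HVCN1 null and 48457 to 57163 in WT hearts. The hearts differed within each group in atrial markers (summed CPM 320 to 4595 in HVCN1 null, 86.8 to 8467 in WT), with WT heart 7 and HVCN1 null heart 2 highest. The same 2 hearts were highest in adipocyte and in mesothelial and epithelial markers. Of 53 tested markers in 12 lists, 1 was a DEG, a smooth muscle and pericyte marker that was higher in HVCN1 null hearts. In that list 3 of 5 genes were above 0 and 2 below. Every tested marker had a log2 fold change below 0 in 5 of the 12 lists, none of them a DEG: erythroid (5 genes, median -1.02, summed CPM 1161 to 6930 in HVCN1 null and 2459 to 12447 in WT hearts), adipocyte (3, -0.77), atrial (5, -0.44), mesothelial and epithelial (4, -0.34) and macrophage (5, -0.31).

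None of the 8 genes was a differentially expressed gene (DEG), defined as an adjusted p under 0.05 in edgeR's quasi-likelihood test over all tested genes, against 169 DEGs or 1.14% of the genes tested (0.743% up and 0.399% down without HVCN1). At an unadjusted p under 0.05 the test returned 1 of the 8, Chp1, with a lower level in HVCN1 null hearts, against 11.0% of all genes in either direction and 5.52% in that direction. DESeq2 called 1 of the 8, again Chp1, against 3.15% of all genes with a DESeq2 adjusted p, and voom called none, against 0.994%. Log2 fold changes, given throughout as HVCN1 null over WT, were below 0 for 7 of the 8 genes, and 52.7% of all tested genes were below 0. Their median was -0.05, beside -0.01 over all genes, and they ran from -0.36 for Slc9a9 to 0.15 for Slc9a7. The gene-level values below are CPM scaled by the TMM method, which do not take transcript length into account, except where a level per kilobase is named.

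**Figure D1:**
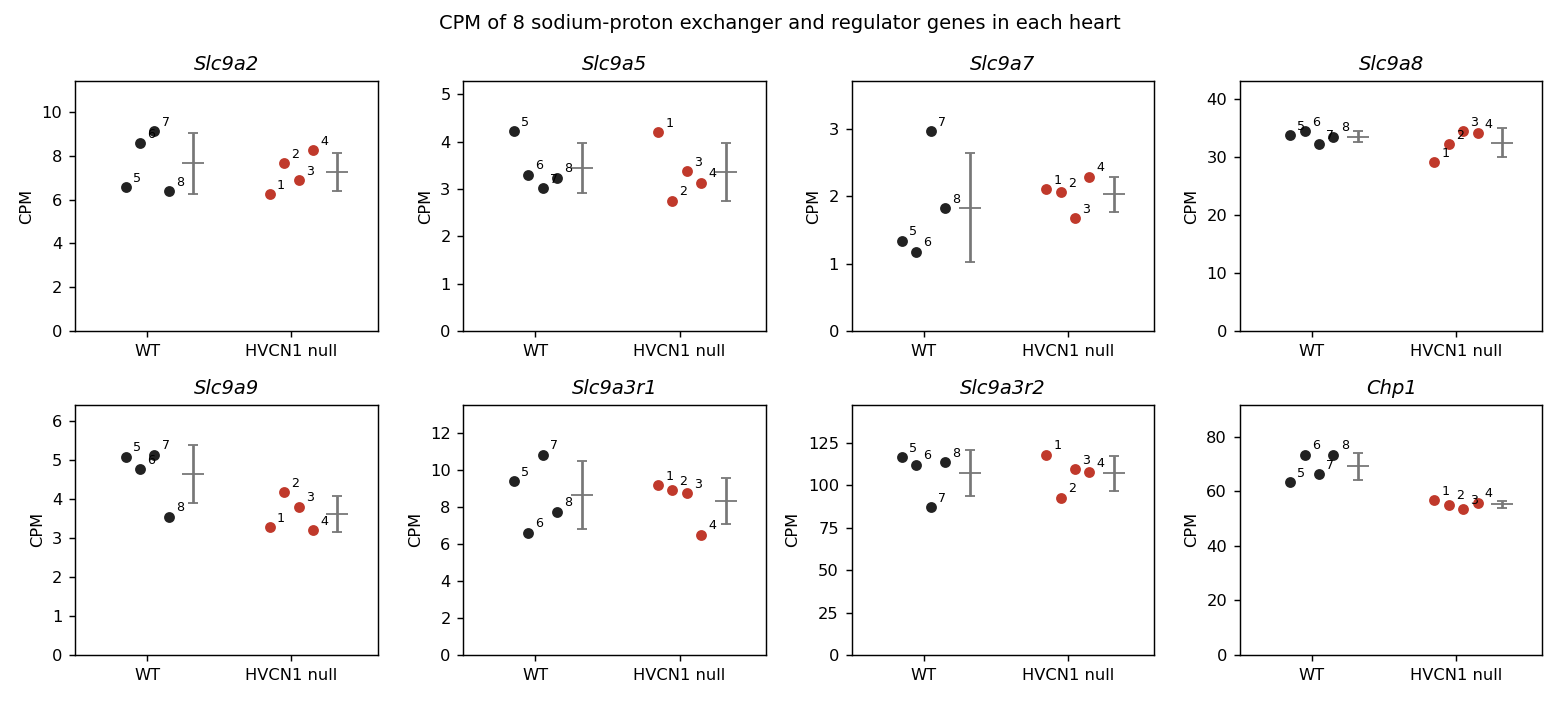
CPM (vertical axes, from 0, with a scale of its own for each gene) of the 8 genes in each of 4 WT and 4 HVCN1 null hearts; each point is 1 heart with its number, and grey bars are the mean and SD of the group. In Chp1 the 4 HVCN1 null hearts sit between 53.5 and 56.7 CPM, all below the WT hearts, while the points of the other 7 genes overlap.

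Chp1 encodes calcineurin B homologous protein 1, an EF-hand calcium-binding protein that attaches to the cytoplasmic tail of cell-surface exchangers and is needed for their stability and activity. Chp1 stood at 56.7, 55.1, 53.5 and 55.8 CPM in HVCN1 null hearts 1 to 4 and at 63.4, 73.4, 66.4 and 73.4 CPM in WT hearts 5 to 8. Every HVCN1 null heart lay below every WT heart, with the HVCN1 null hearts close together and the WT hearts spread more widely. Among all tested genes, 7.06% had groups without overlap (3.45% with the HVCN1 null hearts below), and Chp1 was the only 1 of the 8. The means were 55.3 ± 1.33 CPM (SD, n = 4) and 69.1 ± 5.04 CPM (SD, n = 4), a difference of -20.0% of the WT mean. The log2 fold change was -0.32 (SE 0.08, 95% interval -0.50 to -0.14), with an unadjusted edgeR p of 0.00256 and an adjusted p of 0.115, so the gene did not pass the threshold. An exact two-sided permutation test of CPM gave p = 0.0286, the smallest that 4 against 4 hearts can give. DESeq2 gave an adjusted p of 0.00854, and across 16 alternative fits the log2 fold change stayed between -0.35 and -0.28 while the adjusted p ranged from 0.00854 to 0.346. With an atrial score as a covariate it was -0.29 (edgeR adjusted p = 0.117). The part of the other marker lists, 4 of which had every tested gene below 0, was not tested. In whole-heart RNA, fewer cells of a type and less RNA per cell cannot be told apart.

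Chp1 lies on the + strand of chromosome 2 (119547697 to 119587027 in GRCm38, ENSMUSG00000014077), and Exd1 begins on the opposite strand 69 bases away, so that the genes are transcribed away from each other. Exd1 gave 154 counts in HVCN1 null and 155 in WT hearts (log2 fold change 0.06, SE 0.32, edgeR adjusted p = 0.981). The whole interval between the genes is printed because it belongs to the promoter windows of both genes (RefSeq, GRCm38.p6, chr2:119547628-119547696, + strand, written in the direction of Chp1). Capitals mark a CCAAT box, read here on the other strand.
Chp1: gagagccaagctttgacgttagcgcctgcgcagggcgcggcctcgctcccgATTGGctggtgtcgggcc
The full window, 250 bases before to 50 after the annotated start, also held 2 GC boxes outside this stretch.

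Chp1 was set beside the related cofactors Chp2 and Tesc (calcineurin B homologous protein 3, also called tescalcin), which bind the same kind of exchanger tail. Tesc stood at 102, 147, 128 and 160 CPM in HVCN1 null hearts 1 to 4 and at 86.3, 88.7, 54.2 and 107 CPM in WT hearts 5 to 8. HVCN1 null heart 1 lay below WT heart 8, so the groups overlapped by that 1 pair. The log2 fold change of Tesc was 0.67 (SE 0.20, edgeR adjusted p = 0.192), and DESeq2 gave an adjusted p of 0.0224. Without WT heart 7, the lowest, the log2 fold change of Tesc was 0.52. Tesc (118027743 to 118061878 in GRCm38) lies on chromosome 5, as does the deleted Hvcn1 (122206804 to 122242297). In these hearts an effect of sequence linked to the deleted gene cannot be told apart from loss of the channel, and it was not tested. Chp2 averaged 3.14 ± 0.518 CPM in HVCN1 null and 3.78 ± 0.921 CPM in WT hearts (log2 fold change -0.27, SE 0.20, edgeR adjusted p = 0.754). Per kilobase of exon, the ratio of the Chp1 level to the Tesc level was 0.193 ± 0.0415 in HVCN1 null and 0.395 ± 0.111 in WT hearts (SD, n = 4 each), given as a description since it combines genes chosen with their values known. Tesc was thus the most abundant of these cofactor transcripts per length in both groups, and Chp2 the least.

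**Figure D2:**
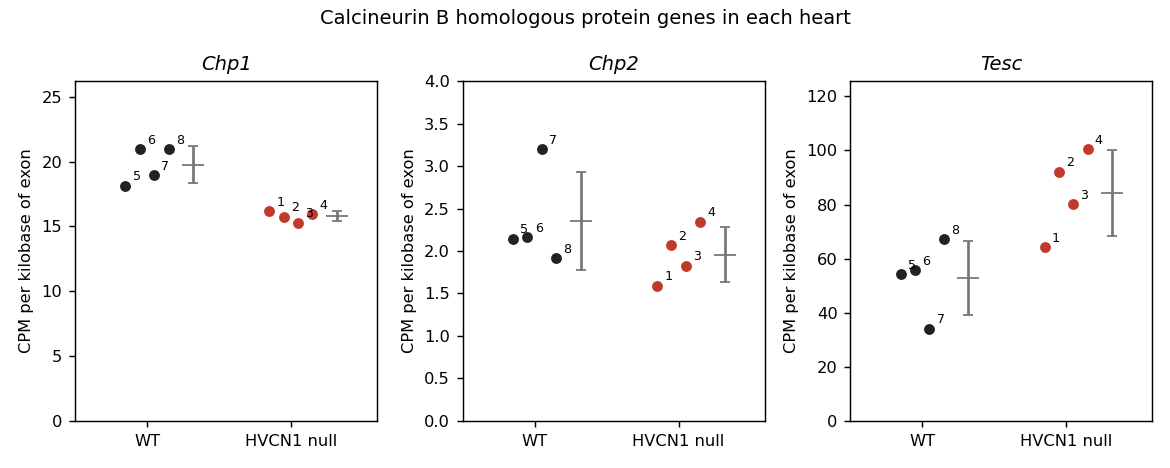
Level of Chp1, Chp2 and Tesc per kilobase of exon (vertical axes, CPM per kilobase, each with its own scale from 0) in 4 WT and 4 HVCN1 null hearts; each point is 1 heart with its number, and grey bars are the mean and SD. Chp1 is without overlap between the groups, whereas Chp2 and Tesc overlap.

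Slc9a3r2 (NHERF2) and Slc9a3r1 (NHERF1, or EBP50) encode scaffolds with PDZ domains that link exchangers and other membrane proteins to ezrin. Slc9a3r2 lies on chromosome 17 (24639286 to 24650327, - strand) and Slc9a3r1 on chromosome 11 (115163341 to 115181181, + strand) in GRCm38. Slc9a3r2 stood at 118, 92.7, 110 and 108 CPM in HVCN1 null hearts 1 to 4 and at 117, 112, 87.2 and 114 CPM in WT hearts 5 to 8. The lowest values were those of HVCN1 null heart 2 and WT heart 7, the same hearts that were highest in atrial markers (summed CPM 4595 and 8467). The other 6 hearts lay close together. They included HVCN1 null heart 3 and WT heart 5, which also stood high in atrial markers (summed CPM 3678 and 3260). The part of atrial tissue in these values was not tested beyond a fit with an atrial score as covariate, in which the log2 fold change was 0.05. In the fit without the score it was -0.01 (SE 0.12, 95% interval -0.26 to 0.25, edgeR adjusted p = 0.997), and its sign turned in 8 of the 16 alternatives. Endothelial markers are set beside it because the scaffold is known from vascular endothelium. They summed to 764 to 964 CPM in HVCN1 null and 806 to 999 CPM in WT hearts, with 4 of 5 below 0 and none a DEG. HVCN1 null heart 2 and WT heart 7 had the lowest endothelial sum of their groups. The part of endothelial cells in the Slc9a3r2 values was not tested.

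Slc9a3r1 stood at 9.16, 8.91, 8.74 and 6.50 CPM in HVCN1 null hearts 1 to 4 and at 9.39, 6.61, 10.8 and 7.73 CPM in WT hearts 5 to 8. HVCN1 null heart 4 lay apart from the other 3 of its group, and the groups overlapped throughout. HVCN1 null over WT, the log2 fold change was -0.06 (SE 0.17, 95% interval -0.43 to 0.32, edgeR adjusted p = 0.964). The ratio of Slc9a3r2 to Slc9a3r1, both per kilobase of exon, was 9.53 ± 1.86 in HVCN1 null and 9.49 ± 2.76 in WT hearts (SD, n = 4 each), and ran from 5.87 in WT heart 7 to 12.3 in WT heart 6. The scaffold known for epithelial brush borders was therefore the less abundant of the pair in every heart. Of 4 markers of kidney and gut epithelium, 2 had no count in any heart, and the other 2 had log2 fold changes of 0.33 and 0.36, neither a DEG. The 4 together summed to 2.03 to 3.69 CPM in HVCN1 null and 1.79 to 2.73 CPM in WT hearts.

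Slc9a2 (NHE2) and Slc9a5 (NHE5) encode the cell-surface exchangers of the list, NHE2 being known from epithelia and NHE5 from neurons, where it also cycles through recycling endosomes. Slc9a2 stood at 6.24, 7.65, 6.88 and 8.25 CPM in HVCN1 null hearts 1 to 4 and at 6.55, 8.56, 9.13 and 6.38 CPM in WT hearts 5 to 8. High and low hearts were found in both groups. The log2 fold change was -0.08 (SE 0.15, 95% interval -0.41 to 0.26, edgeR adjusted p = 0.935), an interval that holds a level of 0.751 to 1.20 times that of WT. An antisense gene, Gm37623, overlaps Slc9a2 (chromosome 1, 40680574 to 40769273, + strand), and the strand setting of the counting is not given in the sources used here, so reads of the pair may not be separated.

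Slc9a5 stood at 4.20, 2.76, 3.38 and 3.14 CPM in HVCN1 null hearts 1 to 4 and at 4.23, 3.31, 3.02 and 3.24 CPM in WT hearts 5 to 8. The highest heart of each group, HVCN1 null 1 and WT 5, reached nearly the same value, and the remaining hearts were intermixed. HVCN1 null over WT, the log2 fold change was -0.04 (SE 0.18, 95% interval -0.43 to 0.36, edgeR adjusted p = 0.980), and it turned sign when library sizes were left unscaled.

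The gene beside Slc9a5 (chromosome 8, 105348843 to 105369881, + strand) is Fhod1, a formin that assembles actin filaments, which is read in the opposite direction and whose annotated start lies 889 bases away. Fhod1 was also the gene of highest Pearson's r with Slc9a5 in log2 CPM over the 8 hearts, as given below. By Spearman correlation Fhod1 ranked 13. Its own log2 fold change was -0.05 (SE 0.14, edgeR adjusted p = 0.962). The promoter windows of the genes share 213 bases, and the part of the Slc9a5 window upstream of its RefSeq start is printed for that reason (RefSeq, GRCm38.p6, chr8:105348008-105348257, + strand). That RefSeq start lies upstream of the annotated start of Slc9a5 given above, from which the 889 bases are counted. Capitals mark GC boxes.
Slc9a5: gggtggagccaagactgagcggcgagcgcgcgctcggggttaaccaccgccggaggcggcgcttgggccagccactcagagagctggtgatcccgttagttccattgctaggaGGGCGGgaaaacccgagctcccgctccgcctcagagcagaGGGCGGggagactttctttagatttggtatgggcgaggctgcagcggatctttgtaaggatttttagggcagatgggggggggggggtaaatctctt

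Slc9a8 (NHE8), Slc9a7 (NHE7) and Slc9a9 (NHE9) encode the organelle exchangers, which are known from the Golgi, the trans-Golgi network and late recycling endosomes, respectively. In GRCm38 they lie on chromosome 2 (Slc9a8, 167421712 to 167477000, + strand), chromosome X (Slc9a7, 20105754 to 20291807, - strand) and chromosome 9 (Slc9a9, 94669909 to 95230445, + strand). Slc9a8 stood at 29.1, 32.2, 34.4 and 34.1 CPM in HVCN1 null hearts 1 to 4 and at 33.7, 34.4, 32.2 and 33.5 CPM in WT hearts 5 to 8. All but HVCN1 null heart 1 lay within a narrow band shared by both groups. The coefficient of variation of Slc9a8 over the 8 hearts was 5.47%, and 3.29% of all tested genes varied less (median of all genes 14.8%). The log2 fold change was -0.04 (SE 0.08, 95% interval -0.22 to 0.13, edgeR adjusted p = 0.922), so the interval reaches from 0.860 to 1.09 times the WT level. Slc9a8 was also the most precisely measured of the 5 exchangers, with 4284 counts in HVCN1 null and 4654 in WT hearts.

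Slc9a7 stood at 2.10, 2.06, 1.67 and 2.29 CPM in HVCN1 null hearts 1 to 4 and at 1.34, 1.17, 2.96 and 1.82 CPM in WT hearts 5 to 8. The WT hearts spanned the whole range of the HVCN1 null hearts, with WT heart 7 the highest of all and WT heart 6 the lowest. The log2 fold change was 0.15 (SE 0.29, 95% interval -0.48 to 0.79, edgeR adjusted p = 0.930), and without WT heart 7 it was 0.50, with an adjusted p of 0.472. This was the least abundant and most variable gene of the 8, at 38 to 112 counts per heart. The processed pseudogene Gm9083 lies within Slc9a7 on the opposite strand and had 17 counts in all.

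Slc9a9 stood at 3.27, 4.17, 3.80 and 3.19 CPM in HVCN1 null hearts 1 to 4 and at 5.09, 4.76, 5.13 and 3.54 CPM in WT hearts 5 to 8. All WT hearts but heart 8 lay above all HVCN1 null hearts, and heart 8 lay among them. The means were 3.61 ± 0.462 and 4.63 ± 0.742 CPM (SD, n = 4 each). Its log2 fold change was -0.36 (SE 0.16, 95% interval -0.73 to 0.00, edgeR adjusted p = 0.461, unadjusted 0.0516). The exact two-sided permutation test of CPM gave p = 0.0857. With the atrial score as a covariate the log2 fold change was -0.43 (edgeR adjusted p = 0.228, unadjusted 0.0140). The unadjusted p was under 0.05 in 4 of the 16 alternatives. With 1 heart left out, the log2 fold change ran from -0.46 to -0.31 and the unadjusted edgeR p from 0.0149 to 0.130. Every tested marker of the erythroid, adipocyte, atrial, mesothelial and epithelial, and macrophage lists was below 0 as well, as given above. The fibroblast (median -0.20, 4 of 5 genes below 0), endothelial (-0.11, 4 of 5) and cardiomyocyte (-0.01, 4 of 6) lists also had medians below 0. Macrophage markers summed to 118 to 152 CPM in HVCN1 null and 132 to 195 CPM in WT hearts. Apart from the fit with the atrial score, the part of these cell types in the Slc9a9 difference was not tested. The antisense gene Gm16262 overlaps Slc9a9, with the same limit as for Slc9a2.

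The windows of Slc9a9 and of the 6 other genes with a RefSeq promoter (8 windows of 300 bases, Slc9a3r2 having 2) were searched on both strands for 4 motifs, each counted on its own whether or not it overlapped another. GC boxes (GGGCGG) were present in 6 of the 8 windows, against 35.7% of 32851 mouse windows, and CCAAT boxes (CCAAT) in 2 of the 8, against 37.4%. Neither the TATA box (TATAAA, 13.6% of all windows) nor the E-box (CACGTG, 7.15%) was found in any of the 8. Slc9a9 was the only gene with none of the 4 motifs in any of its windows, and its GC content of 43.7% was the lowest of the 8 windows. Its stretch upstream of the start is printed to show the contrast with those of Chp1 and Slc9a5 (RefSeq, GRCm38.p6, chr9:94669642-94669891, + strand), and as no motif was found it has no capitals.
Slc9a9: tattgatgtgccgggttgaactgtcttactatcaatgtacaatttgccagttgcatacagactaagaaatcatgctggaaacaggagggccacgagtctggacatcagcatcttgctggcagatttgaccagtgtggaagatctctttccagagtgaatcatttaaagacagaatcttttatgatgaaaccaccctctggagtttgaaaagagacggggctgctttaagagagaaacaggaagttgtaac
These letter matches describe the windows alone and are not measured binding sites.

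Compared per kilobase of exon, the mean level over all 8 hearts descended from Slc9a3r2 (40.5 CPM per kilobase) to Chp1 (17.8), Slc9a3r1 (4.41), Slc9a8 (3.62), Slc9a2 (1.07), Slc9a9 (0.726), Slc9a5 (0.650) and Slc9a7 (0.505). The ranges over hearts did not overlap between Slc9a3r2 and Chp1, Chp1 and Slc9a3r1, or Slc9a8 and Slc9a2. They overlapped between Slc9a3r1 and Slc9a8, and between each neighbouring pair from Slc9a2 down to Slc9a7. Within hearts, Slc9a2 lay above Slc9a9 in all 8, whereas Slc9a3r1 lay above Slc9a8 in 6 of 8, Slc9a9 above Slc9a5 in 6 of 8 and Slc9a5 above Slc9a7 in 5 of 8, so these last 3 pairs were separated neither by range nor within every heart. When the longest transcript was used as the length, Slc9a8 (6.79) moved above Slc9a3r1 (4.41), and the order was otherwise the same. The regulators Slc9a3r2 and Chp1 were thus each more abundant per length than any of the 5 exchangers.

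**Figure D3:**
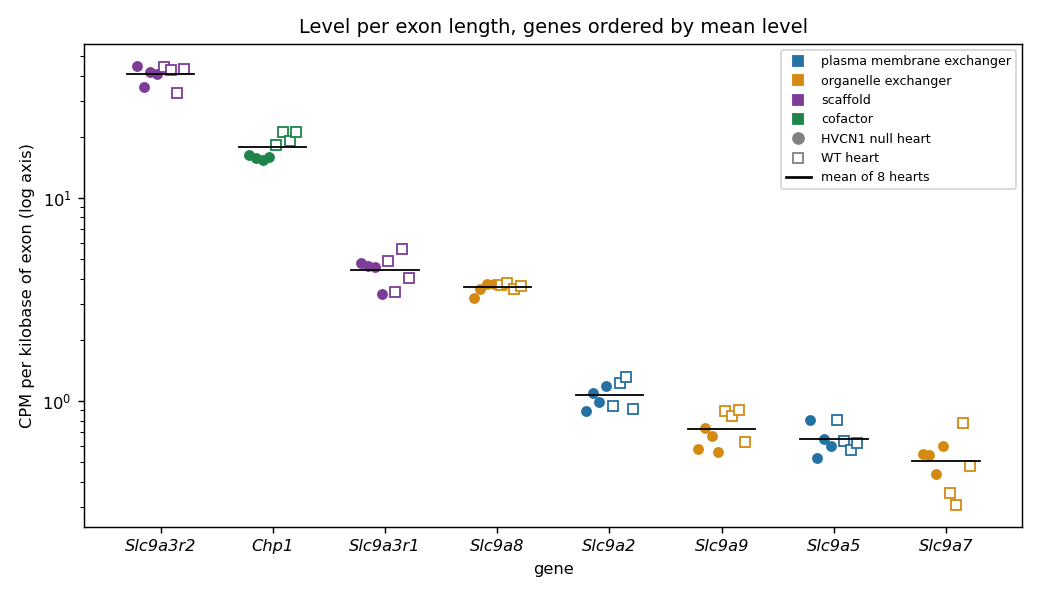
Level of the 8 genes in CPM per kilobase of exon (vertical log axis), ordered by mean level. Each point is 1 heart, a filled circle for HVCN1 null and an open square for WT, and colours mark the class of the gene. The levels descend from 40.5 for Slc9a3r2 to 0.505 for Slc9a7, and the ranges of the groups overlap for all but Chp1, though all WT hearts but heart 8 lie above the HVCN1 null hearts in Slc9a9.

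Plasma membrane and organelle exchangers were compared by summing their levels per kilobase in each heart. The organelle exchangers took 71.8%, 74.8%, 75.0% and 73.4% of the summed level of the 5 exchangers in HVCN1 null hearts 1 to 4. In WT hearts 5 to 8 they took 73.9%, 72.6%, 73.5% and 75.7%. The groups were intermixed, with means of 73.8% ± 1.48 and 74.0% ± 1.31 (SD, n = 4 each). The difference of -0.20 percentage points was smaller than the spread in either group, and with 1 heart left out it ran from -0.637 to 0.446. Slc9a8 alone made up 55.5% ± 2.05 of the summed level in HVCN1 null and 54.8% ± 3.57 in WT hearts. The organelle exchangers summed to 4.73 ± 0.278 CPM per kilobase in HVCN1 null and 4.97 ± 0.180 in WT hearts, and the plasma membrane exchangers to 1.68 ± 0.0735 and 1.75 ± 0.159. These shares cover the 5 listed exchangers and not the whole family, and their size depends on the exon length used. They also count each gene wholly in a single class, so the organelle share rests largely on placing Slc9a8 there. With the length of the longest annotated transcript, the difference in share was -0.16 percentage points.

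**Figure D4:**
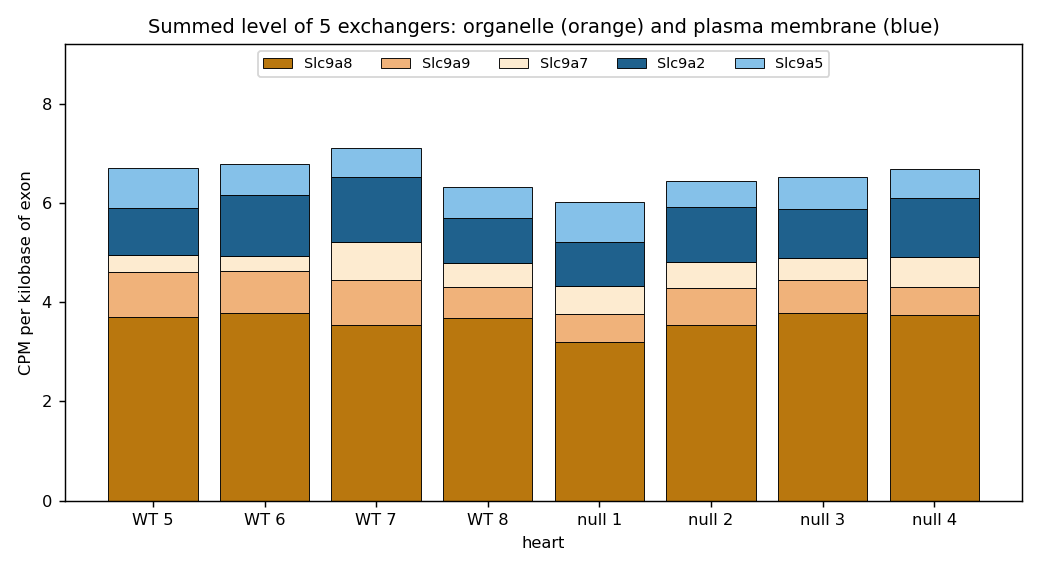
Summed level of the 5 exchangers in each heart (vertical axis, CPM per kilobase of exon, from 0), with organelle exchangers in orange tones and plasma membrane exchangers in blue tones. The organelle part takes between 71.8% and 75.7% of every bar, in both groups.

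Other genes of the pathway were read from 5 fixed lists of 39 genes, of which 34 passed the filter. None of the 34 was a DEG by edgeR's quasi-likelihood test, 3 had an unadjusted p under 0.05 (11.0% of all genes), and DESeq2 called 1, Tesc (3.15% of all genes). Log2 fold changes were above 0 for 20 and below 0 for 14, with a median of 0.02. The 4 other SLC9 and NHA genes listed were all below the filter, with Slc9a4 at 22 counts in HVCN1 null and 37 in WT hearts (ratio of CPM-scaled counts 0.626, 95% interval 0.352 to 1.09, counting error only), Slc9b1 at 10 and 10 and Slc9b2 at 13 and 9. Slc9c1, the sperm exchanger, had no count in any heart, and a count of 0 allows up to 3 counts, or 0.0759 to 0.114 CPM depending on the heart.

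Of the cofactors and adaptors, which include ezrin, radixin and moesin, 10 of 11 were tested, with 4 above 0 and 6 below (median -0.05), and Tesc and Chp2 at the extremes. Of 11 kinases that act on exchangers, 9 were above 0 and 2 below (median 0.03). Their extremes were Prkca, a protein kinase C (0.20, edgeR adjusted p = 0.610), and Rps6ka2, a ribosomal S6 kinase (-0.39, edgeR adjusted p = 0.275). Of 8 organelle ion and pH partners, 5 were above 0 and 3 below (median 0.08). Among these the endosomal chloride-proton exchanger Clcn3 had the highest value (0.15, edgeR adjusted p = 0.793) and Atp6v0a2, a subunit of the proton pump of the Golgi and endosomes, the lowest (-0.26, edgeR adjusted p = 0.324). Atp6v0a2 also lies on chromosome 5 (124628576 to 124724455), with the same limit as for Tesc. Of 5 genes of the sodium gradient, 2 were above 0 and 3 below (median 0.00), from Fxyd1, phospholemman (0.14, edgeR adjusted p = 0.859), to Atp1b1, the beta subunit of the sodium pump (-0.19, edgeR adjusted p = 0.532). Of the genes at the extremes, 3 moved by over 1.5 times with 1 heart left out, at the most for Chp2 to -0.08 without WT heart 7, Clcn3 to 0.05 without WT heart 5 and Fxyd1 to 0.01 without HVCN1 null heart 3. No tested gene of these lists had groups without overlap, against 7.06% of all genes.

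**Figure D5:**
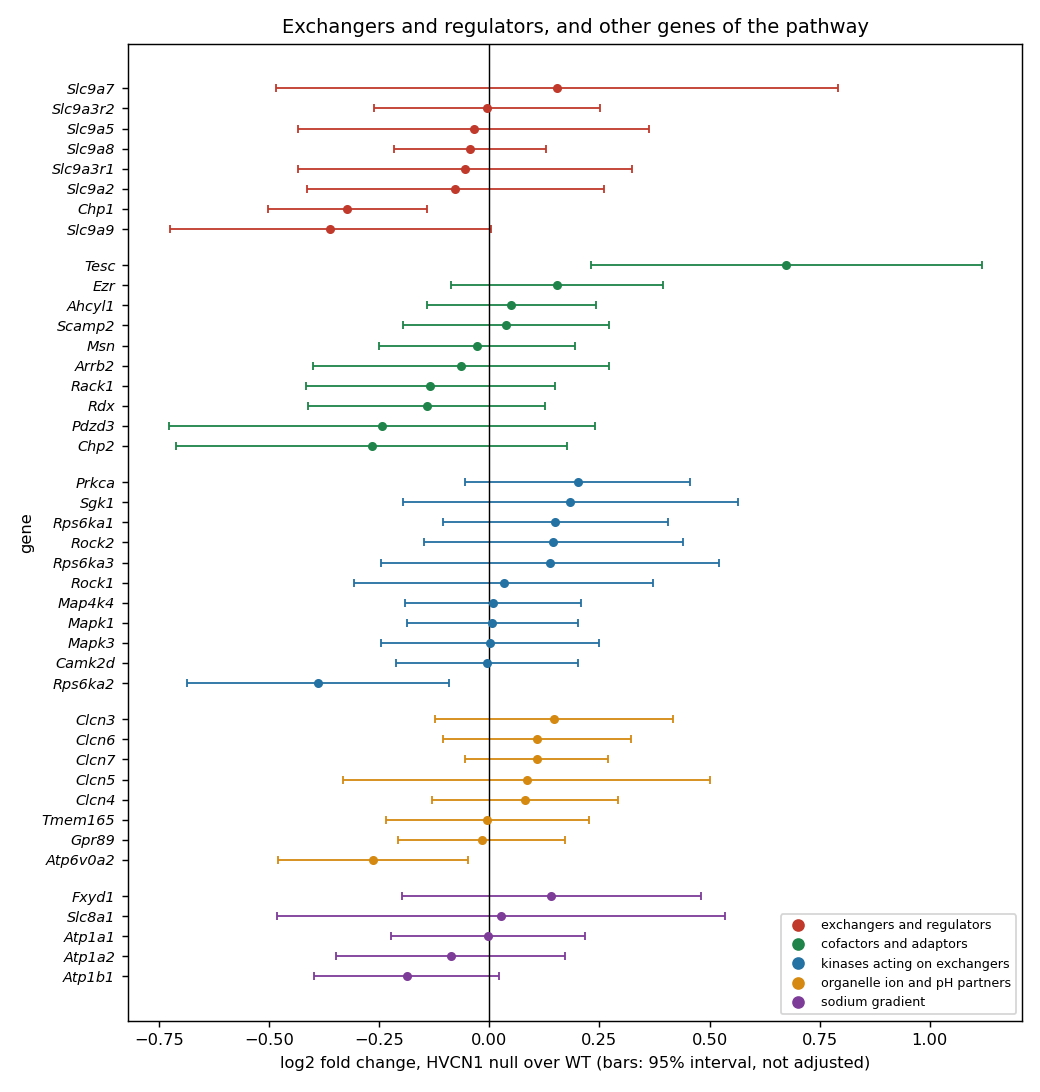
Log2 fold change (horizontal axis, HVCN1 null over WT, 0 drawn as a line) of the 8 genes and of the 34 tested pathway genes, 1 gene per line, coloured by list and sorted by value within it; bars are 95% intervals that are not adjusted for the number of genes. Of the 8 genes, 7 have an interval that holds 0, and that of Chp1 runs from -0.50 to -0.14.

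For each of the 8 genes, the protein-coding genes whose log2 CPM followed it most closely over the 8 hearts were listed by Pearson's r, as a description: the points share libraries and scaling, and each is the highest of about 11493 candidates, for which no p is given. Chp1 was followed by Tcaim, a mitochondrial protein (r = 0.987), and Nsun3, a mitochondrial tRNA methyltransferase (r = 0.984), with log2 fold changes of -0.43 and -0.48 that did not pass the edgeR test (adjusted p = 0.0873 and 0.0996). Slc9a9 was followed by Fcgr3, an Fc receptor of myeloid cells (r = 0.980), and by Myc (r = 0.961). Slc9a3r2 was followed by Tspan13 (r = 0.971) and Robo4, an endothelial receptor (r = 0.963), and Slc9a3r1 by Nrros, a myeloid regulator of TGF-beta (r = 0.979), and Slc24a2 (r = 0.978). Slc9a5 was followed by its neighbour Fhod1 (r = 0.959) and Thy1 (r = 0.958), and Slc9a8 by Enho (r = 0.987) and Bambi (r = 0.986). Slc9a7 was followed by Donson (r = 0.943) and Igsf3 (r = 0.938), and Slc9a2, which had the weakest likeness, by Arl16 (r = 0.893) and the lysosomal channel Mcoln1 (r = 0.878). The places depend on the measure. By Spearman correlation Slc24a2 ranked 76, Enho 22, Arl16 17 and Fhod1 13 for their members, and the other genes ranked 1 to 10.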

How the data were processed

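Poly-A RNA of 8 hearts was sequenced as 1 library per heart. The authors aligned reads with STAR and counted them per Ensembl gene with featureCounts, and the deposited values are these raw counts, not normalized. The labels name mm10 and GRCm38, whereas the study's text names a human build; identifiers in the table are mouse, and 38872 of 39056 were matched to GENCODE M21 (GRCm38), which gave symbols, positions and exon lengths. Strand setting and versions are not given in the sources used here.

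TMM-scaled CPM and DEGs came from edgeR 4.0.16 (filterByExpr defaults, quasi-likelihood test, Benjamini-Hochberg over all tested genes, adjusted p under 0.05), with limma 3.58.1 (voom) and DESeq2 1.42.0 as alternatives beside RLE or no scaling, other filters, edgeR's exact test, an atrial covariate and each heart left out. Standard errors follow from the quasi-likelihood F. CPM differences of single genes were tested by two-sided exact permutation (70 assignments, n = 4 and 4). BLAST 2.17.0 found no other gene matching a member at 95% identity over 20% of its length. The fits were tested on simulated data. Named genes were the 8 members, Hvcn1, called genes and both extremes of each list, and the 2 most similar genes per member; the neighbour Exd1, overlapping antisense genes or pseudogenes, and the 4 untested SLC9 and NHA genes were named outside this rule, with values seen. The members and lists were chosen with earlier results of these data known. Some SLC9 genes are not reported here. No batch is given.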

Additional observations from a re-analysis of the deposited data

Results flagged for a closer look

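In 36 groups of 4 hearts (each group for the 8 genes, Hvcn1, the pathway genes at the extremes of each list, and the organelle share), the gap between the most distant heart and its nearest neighbour was divided by the range of the group, and 3 groups exceeded Dixon's 95% critical value for 4 samples. Chance flags about 1 in 20 groups. For Slc9a3r1 in HVCN1 null hearts the value was 0.843, since heart 4 stood at 6.50 CPM below the others at 8.74 to 9.16. For Slc9a3r2 in WT hearts it was 0.848, since heart 7 stood at 87.2 CPM below the others at 112 to 117. For Clcn3 in WT hearts it was 0.884, since heart 5 stood at 27.1 CPM below the others at 36.9 to 38.1.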

How the results depend on the processing

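The number of DEGs over all genes was 169 and moved to 466 with DESeq2, 367 with edgeR's exact test and 56 at an adjusted p under 0.01. Those higher in HVCN1 null hearts (110) moved to 280 and 209 with DESeq2 and the exact test, and those lower (59) to 186 and 158, and to 89 with the atrial score as a covariate. With 1 heart left out they ran from 71 to 152 in all, 53 to 101 higher and 18 to 53 lower, the lowest of each without WT heart 6. DESeq2 raised the number of members called from 0 to 1 (Chp1, log2 fold change -0.31) and that of cofactors and adaptors from 0 to 1 (Tesc); the cause was not tested.

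Small log2 fold changes turned sign: Slc9a5 to 9.9e-04 without library scaling, and Slc9a3r2 to 0.00634 with RLE scaling, 0.0374 without scaling, 0.00633 with DESeq2 and 0.0451 with the atrial score. The differences in mean CPM turned likewise, to 0.00826 for Slc9a5 without scaling and to 0.472 (RLE) and 2.79 (no scaling) for Slc9a3r2. With 1 heart left out, the log2 fold change ran from -0.147 to 0.0241 for Slc9a2, -0.161 to 0.0871 for Slc9a5, -0.00670 to 0.50 for Slc9a7, -0.0732 to 0.00489 for Slc9a8, -0.164 to 0.0739 for Slc9a3r1 and -0.0898 to 0.0566 for Slc9a3r2. The corresponding differences in mean CPM ran from -0.824 to 0.0910, -0.356 to 0.182, -0.0116 to 0.584, -1.65 to 0.121, -0.986 to 0.415 and -7.18 to 4.30. Slc9a9 and Chp1 kept their sign in all 16 alternatives, and Chp1 had an unadjusted p under 0.05 in each. With 1 heart left out, 3 against 4 hearts cannot give an exact p below 0.0571.

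No paired analysis was possible because the sources used here give no link between single HVCN1 null and WT mice. Depth limits Slc9a7, at 38 to 112 counts per heart, most. Levels per kilobase depend on the annotated exon length.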
